A study of Mus musculus with 4 samples.

Results

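Genes that face each other on opposite strands can run past each other at their 3' ends. In the annotation of this series, 588 pairs of protein-coding loci did so, and these shared intervals are described here. They made up 56.3% of the 1044 opposite-strand pairs of coding loci that shared at least 1 base. The others were 227 divergent pairs (21.7%), which overlap at their 5' ends, and 229 pairs (21.9%) with one locus inside the other. The 588 intervals involved 1173 of 20992 coding loci.

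A member is the stretch from the first base of a minus-strand locus to the last base of a plus-strand locus of another symbol. The plus locus has to start before the minus locus, and neither may contain the other. A locus here is the span from first to last base of all coding transcripts of a symbol on 1 strand. There were 38851 such transcripts on the 21 assembled mm10 chromosomes (1 to 19, X and Y). Members were chosen by these annotated start and end positions alone, so lengths and counts of members are descriptions of fixed annotation, with no replicate error and no test.

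The study profiled RNA polymerase I (Pol I) with CUT&Tag, in which an antibody directs a transposase to chromatin, in C64 mouse embryonic stem cells. The groups were cells given 500 nM auxin for 6 h (2 libraries) and untreated control cells (2 libraries). Auxin is used to deplete proteins fused to a degron, and the labels name no such protein. They do not say whether C64 is a single clone. The file analysed is a genome annotation without columns for libraries, so auxin and control cells are not compared and library depth is unknown.

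A messenger RNA ends where the transcript is cut and polyadenylated, usually a short distance after the hexamer AATAAA or a variant of it. The 3' untranslated region (3' UTR) lies between the stop codon and that site and carries binding sites for microRNAs and RNA-binding proteins. Where the ends of convergent genes overlap, the transcripts are complementary over the bases that are exonic in both. Polymerases on opposite strands can also meet there, and counts that ignore strand cannot be assigned to one gene.

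Few of the shared intervals were covered by the sequences at hand, and stretches that carry a gene end or a microRNA are shown. No genome sequence was used here. RefSeq promoter windows of GRCm38.p6 (250 bases before to 50 after a gene start) touched 3 intervals, at Lrrc26 and Grin1, Ccl27b and Il11ra2, and Ints11 and Pusl1. At Ccl27b and Il11ra2 the window reached 26 shared bases, which are not shown. Grin1, which encodes an NMDA receptor subunit, shared 17 bases with Lrrc26, which encodes an auxiliary subunit of a potassium channel, at chr2:25291177-25291193. The window there belongs to the antisense gene Grin1os. The same 30 bases (chr2:25291171-25291200) are given on each strand, with the shared bases in capitals.
Lrrc26 strand (plus): aacccgGAAATTTTCTGACATTCctttagg
Grin1 strand (minus): cctaaagGAATGTCAGAAAATTTCcgggtt
All 17 bases were 3' UTR of both genes. They were 12.8% of the 3' UTR bases of Lrrc26 and 1.52% of those of Grin1.

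Ints11, the catalytic subunit of the Integrator complex, shared 247 bases with Pusl1, a pseudouridine synthase-like gene, at chr4:155888857-155889103. All of them were 3' UTR of both genes. The minus-strand bases up to the end of Pusl1 (chr4:155888851-155888880) are shown, with the shared bases in capitals and the bases past the end of Pusl1 in lower case.
Pusl1 end (minus): AATAAAAGACATAGAGAACAAAAAggtctg
This stretch begins with the hexamer AATAAA, and 18 bases followed from the hexamer to the last base of Pusl1. Both strands of the 3 windows were searched for AATAAA and for its variant ATTAAA. The plus strand of this window also held AATAAA, outside the shared interval, and neither hexamer was found in the other windows. Of 32851 RefSeq promoter windows of 300 bases, 19.6% held AATAAA and 13.9% held ATTAAA on either strand, so such a match is a description and not a mapped site.

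The miRNA table placed 3 microRNA genes inside shared intervals. Their mature sequences (RefSeq, GRCm38.p6) are given with the seed, bases 2 to 8, in capitals.
mmu-miR-3082-5p: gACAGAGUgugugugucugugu
mmu-miR-3082-3p: cACAUGGCacucaacucugcag
mmu-miR-6910-5p: uGGGGGUAgggcaccagugggca
mmu-miR-6910-3p: uCAUGGUUuccacccuuugucc
mmu-miR-6966-5p: cUCGGGGAuguggacagcaca
mmu-miR-6966-3p: uGCUGUGUgcuuccucugcag
No seed was shared among the 6. Mir3082 lay on the minus strand in the interval between Jmjd8 and Stub1 on chromosome 17, and both mature arms were intronic in Stub1 and 3' UTR in Jmjd8. Stub1 encodes CHIP, a ubiquitin ligase that works with Hsp70. Mir6910 lay on the plus strand between Ptbp1, a splicing regulator, and Plppr3 on chromosome 10. Mir6966 lay on the plus strand between Ciao3, an iron-sulfur cluster assembly factor, and Haghl on chromosome 17. Both arms of these 2 microRNAs were intronic in both genes of their pair.

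Most overlaps were short, and a few long ones held much of the shared sequence. The median shared length was 368.5 bases, with 25th and 75th percentiles of 75 and 1276.75 bases. In 39 pairs (6.63%) the overlap was 1 to 10 bases, in 139 pairs (23.6%) it was longer but at most 100, and in 227 pairs (38.6%) it was over 100 and at most 1000. A further 168 pairs (28.6%) shared up to 10000 bases, and 15 pairs (2.55%) shared more. The 588 intervals added up to 882178 bases, of which the 10 longest held 28.9%.

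The overlap was usually a small part of each gene. It covered a median of 1.86% of the plus locus and 2.26% of the minus locus. In 330 pairs it was under 5% of the shorter locus, and in 26 pairs over 50%.

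**Figure D1:**
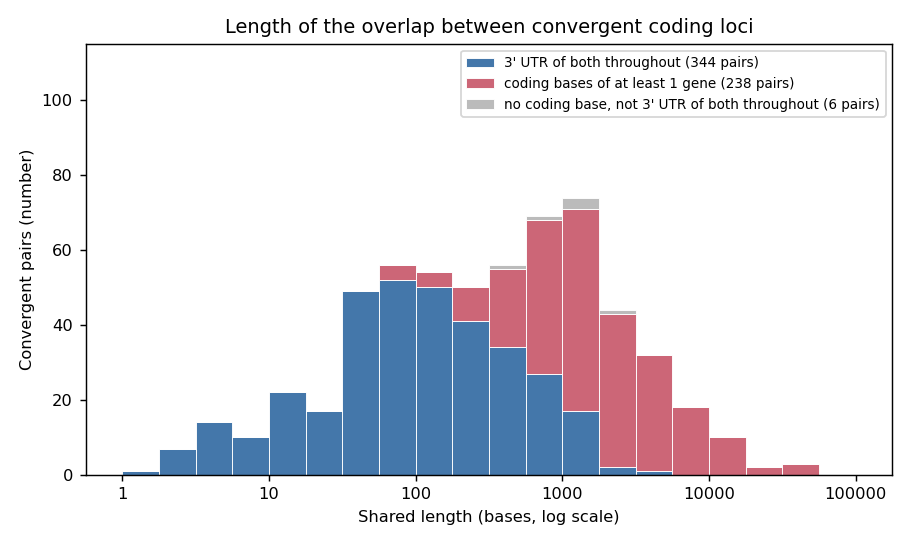
Number of convergent pairs (vertical axis) by shared length in bases (horizontal axis, log scale), with bars stacked by what the shared bases are. The 344 pairs that shared 3' UTR alone had a median of 99.5 bases, and the 238 pairs with coding bases a median of 1458 bases.

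In 344 pairs (58.5%) every shared base was 3' UTR of both genes. These tail-to-tail overlaps had a median length of 99.5 bases and a range of 1 to 3547 bases. The longest lay between Nr2c2, an orphan nuclear receptor, and Mrps25, a mitochondrial ribosomal protein (chr6:92169512-92173058). It held 65.4% of the 3' UTR bases of Nr2c2 and 64.4% of those of Mrps25. Fbxo7, an F-box protein, and Syn3, a synapsin, followed with 3128 bases. Although they were the majority of pairs, the 344 intervals held 10.1% of all shared bases.

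In 238 pairs (40.5%) the overlap reached at least 1 coding base. Here the median length was 1458 bases, with a range of 73 to 53849, and these intervals held 89.1% of all shared bases. The remaining 6 pairs had no coding base but included bases that were not 3' UTR of both genes. By length they ranged from Tesk1 and Cd72 (352 bases, 88.9% 3' UTR of both) to Sgpp2 and Farsb (2329 bases, 11.4%). The share that was 3' UTR of both was highest, at 94.6%, in Pptc7 and Rad9b. These pairs are named after their values were seen.

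Counted over bases, introns led. Of the 882178 shared bases, 39.8% were intron of both genes, 19.04% were 3' UTR of both, and 55.8% were 3' UTR of at least 1 gene. Coding sequence of at least 1 gene made up 10.6%, and bases coding on both strands 0.142% (1250 bases). Bases that were 5' UTR of a gene numbered 416, in 8 pairs. Averaged over pairs instead of bases, the 3' UTR of both genes took 69.1% of the interval, because the many short overlaps then count as much as the long ones.

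**Figure D2:**
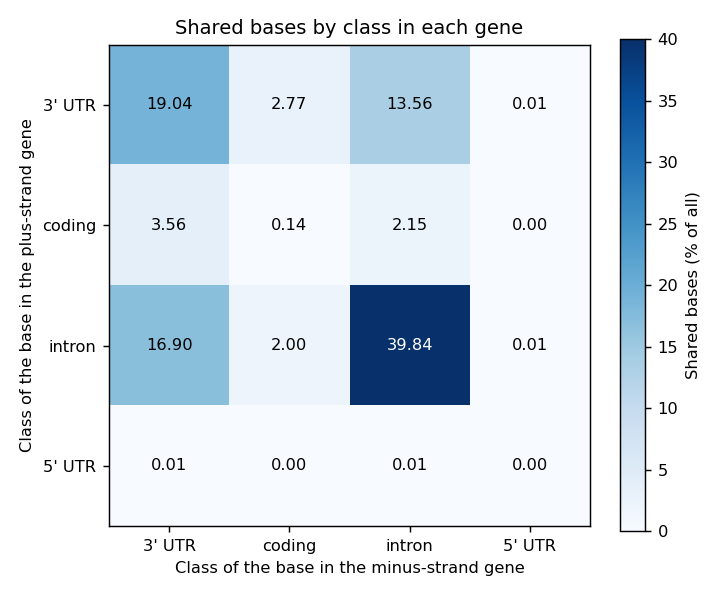
Share of all shared bases (%, shading and printed values) by the class of the base in the plus-strand gene (rows) and in the minus-strand gene (columns). Intron of both genes (39.84%) and 3' UTR of both genes (19.04%) are the highest values, and 0.14% was coding in both.

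Bases exonic in both genes, over which spliced transcripts are complementary, were present in 574 of 588 pairs. Their median number in those pairs was 214, and the highest was 3547, in Nr2c2 and Mrps25. In the other 14 pairs the shared interval held no base that is exonic in both genes. Fam118a and Smc1b were such a pair. Smc1b encodes the meiosis-specific cohesin subunit SMC1β, and the 52892 shared bases held 2493 coding bases of Smc1b and 53 of Fam118a.

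Overlaps were longer where a gene ran past its partner's 3' UTR, which follows in part from the grouping by end position. In 345 pairs (58.7%) both genes ended inside the partner's 3' UTR, and the median overlap was then 100 bases. In 161 pairs (27.4%) 1 of the ends lay there, with a median overlap of 1052 bases. In 82 pairs (13.9%) neither did, and the median was 4172 bases. Among these, both genes ended in an intron of the partner in 73 pairs. Over all 588 pairs, the plus gene ended inside coding sequence of the minus gene in 12, and the minus gene inside coding sequence of the plus gene in 19.

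A convergent overlap took up a large part of many 3' UTRs. A median of 40.5% of the 3' UTR bases of the plus gene and 45.1% of those of the minus gene fell inside the shared interval. The whole 3' UTR lay inside in 134 plus genes and 127 minus genes, each out of 587 with an annotated 3' UTR. In 36 pairs this held for both genes. Tcp1, a subunit of the cytosolic chaperonin, and Acat3, an acetyl-CoA acetyltransferase, were 1 of the 36, picked after their values were seen. They shared 1109 bases, with all 591 3' UTR bases of Tcp1 and all 701 of Acat3 inside.

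Bases that code on both strands were found in 20 pairs (3.40%). Their number was between 4 and 200, with a median of 44. In 53 further pairs the interval held coding bases of both genes, but never at the same position. The largest stretch was at Thra and Nr1d1 on chromosome 11. Thra encodes thyroid hormone receptor alpha, and Nr1d1 encodes REV-ERBα, a nuclear receptor that represses clock genes.

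Thra and Nr1d1 shared 1075 bases (chr11:98767932-98769006). Thra had 2 coding transcripts. The shorter one, with 9 exons and 1233 coding bases, ended at position 98765113, before Nr1d1 began. The longer one, with 10 exons and 1479 coding bases, ended at 98769006, and its last exon held 369 coding bases and 481 3' UTR bases inside the overlap. Nr1d1 had 1 transcript, with 200 coding bases and 288 3' UTR bases in the interval. All 200 of those coding bases were also coding in Thra, and they were 13.5% of the coding sequence of the longer Thra transcript and 10.8% of that of Nr1d1. The overlap thus belonged to 1 of the 2 annotated Thra transcripts.

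**Figure D3:**
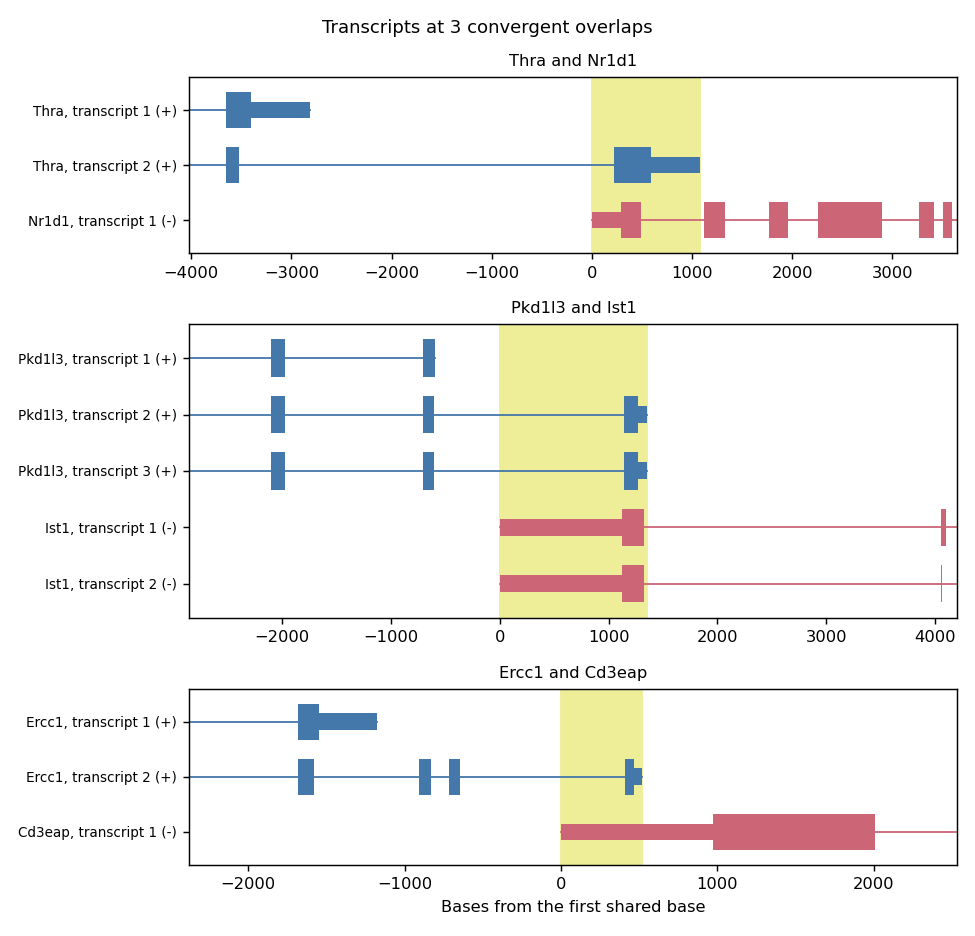
Annotated transcripts at 3 convergent overlaps, by distance in bases from the first shared base (horizontal axis). Tall boxes are coding, low boxes untranslated exon bases, lines introns, blue the plus strand, red the minus strand and yellow the shared interval. Thra, Pkd1l3 and Ercc1 each have 1 transcript that ends before the partner begins.

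Muc4 and Muc20, both mucins, had 153 bases coding on both strands within a shared 4973 bases (chr16:32777419-32782391). Muc20 had 2 transcripts, and 1 of them overlapped Muc4. The 153 bases were 1.47% of the coding sequence of Muc4 and 7.40% of that of the Muc20 transcript. Pkd1l3, a polycystin family member, and Ist1, an ESCRT-III subunit, had 127 such bases, and 2 of the 3 Pkd1l3 transcripts reached Ist1. These 127 bases included the last coding base of Pkd1l3.

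Tmem208, an endoplasmic reticulum membrane protein, and Fhod1, a formin, had 116 bases coding on both strands. Of 5 Tmem208 transcripts, 4 ended at position 105329057 and the fifth at 105335222, so that 1 of them overlapped Fhod1. The 6063 shared bases held 2263 coding bases of Fhod1. Fxr1, an RNA-binding protein, and Dnajc19, a mitochondrial DnaJ protein, had 91 such bases. Myoc, which encodes myocilin, and its partner Myocos had 89, and all 89 coding bases of Myocos in the interval were coding in Myoc.

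Further pairs among the 10 with the most such bases were Gm19345 and Ceacam16 (68), Tsr1 and Srr (49), and Tti2 and Mak16 (45). Ceacam16 encodes a protein of the inner ear, Tsr1 and Mak16 act in ribosome biogenesis, Srr encodes serine racemase, and Tti2 is part of a complex that stabilises PI3K-like kinases. In each of the 20 pairs the codons on the strands met in a single register, taking for each pair the transcripts with the most such bases. Codon positions 3 faced each other in 10 pairs, positions 1 in 7 and positions 2 in 3. At Thra and Nr1d1 positions 2 faced each other, so that position 1 of one gene faced position 3 of the other. The last coding base of the plus gene lay within the bases coding on both strands in 8 pairs and that of the minus gene in 6, both in 2.

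The longest shared interval, of 53849 bases, lay between Spink10 and Spink13 on chromosome 18, both named as Kazal-type serine protease inhibitors. Each had 1 coding transcript, and they shared no exonic base. Fam118a and Smc1b came next with 52892 bases on chromosome 15, and this overlap rested on 1 of 10 Fam118a transcripts. Pbrm1, a subunit of the PBAF chromatin remodeller, and Smim4 shared 33466 bases on chromosome 14. That was 82.0% of the Smim4 locus.

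Trim37, a ubiquitin ligase, and Ppm1e, a protein phosphatase, shared 23955 bases through 1 of 5 Trim37 transcripts. Long overlaps thus often rested on few transcripts, but not always. Serpine3 and Ints6, an Integrator subunit, shared 15919 bases with 1 transcript each. Cp, which encodes ceruloplasmin, and Hps3 shared 13806 bases, Pyroxd1 and the helicase gene Recql 12283, and Rnf139 and Tatdn1 12238.

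Relative to the shorter locus, Gm19345 and Ceacam16 overlapped most, with 98.5% of Gm19345 shared. Rnf139, a membrane-bound ubiquitin ligase, followed with 93.0%, Smim4 with 82.0% and Smc1b with 78.6%. Pmch, which encodes the precursor of melanin-concentrating hormone, had 74.98% of its locus (977 bases) inside the end of Parpbp. All 977 bases were 3' UTR of Parpbp, and 249 of them coded for Pmch.

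At the other end of the range, 1 base was enough to qualify. Kcnh3, a potassium channel, and Mcrs1 shared position 99242817 on chromosome 15. Srrm2, a spliceosome protein, shared 2 bases with Elob, as did Gpha2 with Ppp2r5b and Cdk10 with Spata2l. Hspb6, a small heat shock protein, shared 3 bases with Lin37, as did Apc2 with 2310011J03Rik, Ddx42 with Ftsj3 and Snx21 with Acot8. Slc2a12 and Tbpl1, and Dctn2 and Mbd6, shared 4. Just outside the rule, 6 convergent neighbours met with a gap of 0 bases, among them Ilvbl and Syde1, Snf8 and Ube2z, Dcst2 and Zbtb7b, Car9 and Tpm2, and Bhlha15 and Tecpr1.

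Most convergent neighbours lay well apart. In all, 4366 neighbouring coding loci converged without overlap, with a median gap of 9301.5 bases, so 11.9% of the 4954 convergent pairs overlapped. The sets differ in kind, as only the gaps were limited to loci with no coding locus between them. Of the overlaps, 6 had another coding symbol in the shared interval. In bins of 50 bases the highest count was in overlaps of 1 to 50 bases, with 105 pairs, against 59 pairs with gaps of 0 to 49 bases. Up to 1000 bases, however, there were 405 overlaps and 635 gaps. Counts fell off faster on the side of overlap.

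**Figure D4:**
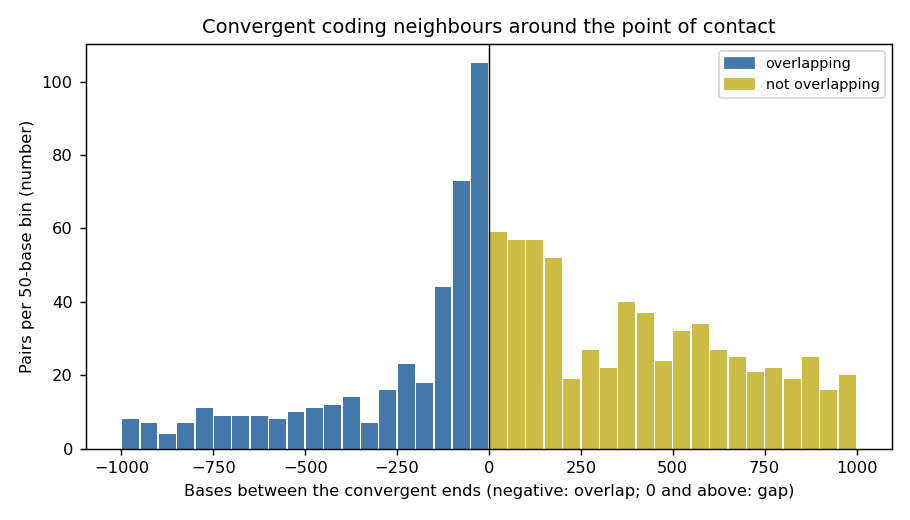
Number of convergent pairs per 50-base bin (vertical axis) by the bases between their ends (horizontal axis), negative for overlap and 0 or above for a gap. The bin of 1 to 50 shared bases is the highest with 105 pairs, and the first gap bin holds 59.

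The share of overlaps that applied to every transcript differed between kinds of overlap. In 482 pairs (82.0%) each coding transcript of the plus gene overlapped each of the minus gene. Of these, 138 had 1 transcript per gene, so that it could not be otherwise. Among the 450 pairs with more than 1 combination of transcripts it held in 344. With pairs of 1 transcript per gene included, it held for 303 of 344 pairs that shared 3' UTR throughout (88.1%). It held for 175 of 238 pairs with coding bases (73.5%). The number of transcripts was not held equal between these kinds. In 32 pairs the overlap rested on a single combination out of several. Thra and Nr1d1, Muc4 and Muc20, and Fam118a and Smc1b were among the 32.

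A list of 7 pairs described as tail-to-tail neighbours in human or rodents held 4 members. Besides Thra and Nr1d1 these were Pkd1 and Tsc2, Ercc1 and Cd3eap, and Msh6 and Fbxo11. Pkd1, the gene of polycystin 1, and Tsc2, the gene of tuberin, shared 699 bases (chr17:24595816-24596514), all of them 3' UTR of both. They were 71.7% of the 3' UTR bases of Pkd1 and 88.6% of those of Tsc2. Msh6, a mismatch repair gene, and Fbxo11 shared 34 bases, also 3' UTR throughout.

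Ercc1, a DNA repair endonuclease subunit, and Cd3eap, a Pol I subunit gene, shared 518 bases (chr7:19356007-19356524). The overlap came from 1 of 2 Ercc1 transcripts and held 54 coding and 52 3' UTR bases of Ercc1, against 518 3' UTR bases of Cd3eap. The other 3 pairs of the list did not overlap. Fgf2 and Nudt6 were 151 bases apart, Ddost and Pink1 789, and Tnxb and Cyp21a1 81532.

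Of all coding symbols, 5.59% took part in a convergent overlap. Among 22 symbols for Pol I subunits and factors, 3 did. Polr1e shared 32 bases with Fbxo10, and Taf1c, a subunit of the Pol I promoter selectivity factor, shared 481 with Dnaaf1, all 3' UTR of both. The other was Cd3eap. Of 18 further Pol II and Pol III subunits, 4 did, among them Polr2b with Igfbp7 (89 bases), Polr2c with Dok4 (415) and Polr2i with Ovol3 (91). The overlap of Polr2i reached coding sequence, with 51 of its own coding bases and its whole 3' UTR of 40 bases inside.

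In the list of cleavage, polyadenylation and termination factors, 3 of 24 symbols were members. Fip1l1, a subunit of the cleavage and polyadenylation specificity factor, shared 6344 bases with Lnx1, and the whole 3' UTR of each gene lay inside. Cstf2, a subunit of the cleavage stimulation factor, shared 402 bases with Nox1. Cpsf1 shared 5 with Adck5. These last 2 overlaps were 3' UTR of both genes throughout.

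Of 22 symbols of double-stranded RNA, RNA interference and editing, 3 were members. Dgcr8, which binds primary microRNAs, shared 809 bases with Trmt2a, Ilf2 354 with Snapin, and the editing enzyme gene Adar 8 with Chrnb2. All 3 were 3' UTR throughout. In the nucleolar list, 4 of 18 were members, each with a short 3' UTR overlap. Bop1 shared 52 bases with Mroh1, Nhp2 shared 46 with Rmnd5b, Dkc1 shared 44 with Mpp1, and Nop56 shared 5 with Idh3b. Nhp2 and Dkc1 are proteins of H/ACA small nucleolar particles, and Nop56 of C/D ones.

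The DNA repair list had 5 of 24 symbols in 5 overlaps, among them Ercc1 and Msh6 above. Lig3 shared 456 bases with Rffl and Fancd2 259 with Fancd2os, both 3' UTR throughout. Ercc2, a helicase of TFIIH, shared 1255 bases with Klc3, and these held 384 coding bases of Klc3 and 5 of Ercc2. Of 17 circadian clock symbols with a coding locus, 2 were members, Nr1d1 and Dbp. Dbp shared 741 bases with Sphk2, 216 of them coding for Dbp. No symbol on the lists of 29 heat shock factors and chaperones and of 14 pluripotency factors was a member. The first list does not hold every chaperone or co-chaperone. Members outside it include Hspb6, Tcp1 and Dnajc19, described above, and also Trap1, Cct8, Dnajc1, Dnajc14 and Ahsa2. The lack of members therefore applies to the listed symbols and not to chaperone genes as a whole. These shares were not tested against 5.59%.

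At 3 loci a gene overlapped 2 partners, and each combination counts as a member. Ncaph2, a condensin subunit, overlapped both Sco2 and Tymp. Tbc1d17 overlapped Il4i1 and Il4i1b, and Upf1, the helicase of nonsense-mediated decay, overlapped Cers1 and Gdf1. In these 6 pairs the other partner also reached into the shared interval, so such bases count more than once in the total. All other 1170 member genes were in a single pair. In 5 pairs the letters before the first digit of the symbols, at least 3, were the same, namely Muc4 and Muc20, Spink10 and Spink13, Surf2 and Surf4, Chrna5 and Chrna3, and Fancd2 and Fancd2os. Myoc and Myocos, and Cebpzos and Cebpz, likewise differ by the ending os.

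Besides the 3 microRNAs, other non-coding symbols lay in shared intervals of 4 pairs. One was Snord91a, a small nucleolar RNA, between Tsr1 and Srr.

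Members were found on 20 of the 21 chromosomes. Per 1000 coding loci the count was 28.0 over all chromosomes. It was highest on chromosome 19 (38.7) and chromosome 17 (37.0) and lowest on chromosome X (15.5, from 14 pairs) and chromosome Y (0 pairs among 77 loci).

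Genes in convergent overlaps were also set beside genes of convergent neighbours that do not touch. The 3' UTR of member genes, taken from the transcript that sets the locus end, had a median of 789 bases. It was 522 bases in genes of convergent neighbours with a gap of up to 1000 bases and 689 bases in all coding loci. This length contributes to the locus end that the rule uses, so it is not independent of membership. Member genes also had a median of 2 coding transcripts, against 1 in each of the other sets. The shares of genes with 1 coding transcript were closer, at 49.8% of member genes, 56.5% of gap neighbours and 61.1% of all coding loci. A locus spans all its coding transcripts, so their number is not independent of membership either. Median exon numbers were 10, 9 and 7 in the same order of sets. The RefSeq promoter window nearest the annotated start, a feature that the rule did not use, was available for 940 of 1173 member genes (80.1%). Its ratio of observed to expected CpG was above 0.6 in 67.0% of member genes, 65.1% of gap neighbours and 49.8% of all coding loci. These differences were not tested, as neighbouring genes are not independent.

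Values of the convergent pairs were set beside those of the other kinds of opposite-strand overlap. Bases exonic in both genes were present in 97.6% of convergent pairs, 81.9% of divergent pairs and 14.0% of pairs with one locus inside the other. The median length was about the same in convergent (368.5 bases) and divergent pairs (369), while it was 5183 bases where one locus lay inside the other. The spread was wider in convergent pairs, with 25th and 75th percentiles of 75 and 1276.75 bases, against 217 and 861 in divergent pairs. Each combination of transcripts overlapped in 82.0% of convergent pairs, 36.6% of divergent pairs and 82.5% of pairs with one locus inside the other. Coding bases were reached in 40.5% of convergent and 59.9% of divergent pairs, and in 100% of pairs with one locus inside the other. Bases coding on both strands were found in 3.40% of convergent pairs, 5.29% of divergent pairs and 3.06% of pairs with one locus inside the other. These contrasts follow in part from how the kinds are defined and were not tested.

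**Figure D5:**
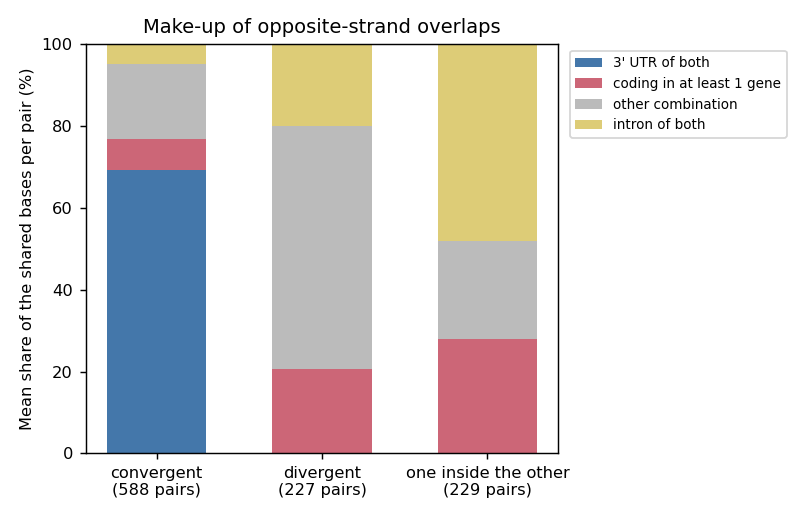
Mean share of the shared bases per pair (%, vertical axis) by class for convergent pairs, divergent pairs and pairs with one locus inside the other. Bases that are 3' UTR of both genes average 69.1% in convergent pairs and 0% in divergent ones.

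The members were also looked up by gene span in the RefSeq gene table of GRCm38.p6. Both genes had an entry in 587 pairs, and their spans overlapped there in all 587. The shared length was the same in 394 pairs, longer in the table in 193 and shorter in 0, with a median of 494 bases over all. The lookup is thus not an independent check of membership. Of 635 convergent neighbours with a gap of up to 1000 bases, 66 (10.4%) overlapped in that table. A gap between coding transcripts here is therefore not always a gap between the gene spans of that table.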

How the data were processed

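The series comprises 4 Pol I CUT&Tag libraries, and a single table of the whole series was analysed, an annotation in 12-column BED layout without a header. Positions and exon numbers are used as deposited, and the deposited BED score was 0 in all 50727 rows. The submitters' processing notes name mm10 as build and list bedtools, Bowtie2, deepTools and FastQC as tools. How the annotation was made is not stated in the labels. Depth is unknown.

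Coding rows (coding start below coding end) on assembled chromosomes were merged per symbol and strand, and starts were converted to count from 1. Each shared base was classed per gene as coding, 3' UTR, 5' UTR or intron, in that order of priority where transcripts differ. Convergent neighbours with a gap have no coding locus between them. The pair finder was tested on 300 simulated loci and the base classes on part of them (6869933 bases), with 0 differences from an exhaustive comparison. Python 3.11.15, pandas 2.3.3, numpy 2.4.6 and matplotlib 3.10.9 were used.

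The members and the 10 lists were chosen with earlier results of these data known. Named pairs are the 10 longest, the 10 shortest, the 10 with most bases coding on both strands, the 5 with the largest share of the shorter locus, the 5 smallest gaps and all with a list gene. Others are pairs with printed sequences, extremes of a category, or pairs said to be picked later. Some pairs that this rule selects are not reported here. No test was run.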

Additional observations from a re-analysis of the deposited data

How the results depend on the processing

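No paired analysis was possible because no measurement of any library was analysed. The count of 588 pairs stayed within 1.5 times under all 8 alternatives, between 412 (at least 100 shared bases) and 871 (non-coding rows included). The 238 pairs with coding bases became 454 with non-coding rows and stayed within 1.5 times otherwise. Non-coding rows add non-coding loci and can also lengthen coding ones, and the gain was not split between these. The median of 368.5 bases became 937 with non-coding rows, 817 with at least 100 shared bases and 245 for the interval shared by every pair of transcripts, and otherwise lay between 317 and 368.5.

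The 19.04% of shared bases that were 3' UTR of both genes depended most on the choices. It became 4.79% with non-coding rows, 25.2% with 1 transcript per symbol, 26.0% where an exonic base of both was required and 30.6% for the interval shared by every pair of transcripts. It became 18.8% on all contigs but the rDNA contig, 18.4% with at least 100 shared bases, 19.3% without Gm and Rik symbols and 19.2% with 3' UTR before coding. The mean over pairs, 69.1%, was chosen after seeing the data. Merging only transcripts that touch changed none of these values.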
